A study of Homo sapiens with 8 samples.

Results

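EGR1, FOS, HBEGF, XCL1 and CCL5 were followed across 8 arrays of cell lines of human T-ALL (T cell acute lymphoblastic leukaemia): 2 immediate early transcription factors, a growth factor and 2 chemokines. They were chosen by gene symbol from among genes whose level had been seen to vary over these arrays by line and construct, so their levels and differences are given as a description, with no p. Where a comparison over all genes is given, the number of members among its calls stands beside the share of all genes called, and nothing is read from it. They are represented by 7 of the 53617 probe sets and are 5 of the 14884 genes with a single symbol. EGR1 and FOS have 2 probe sets each.

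The series compared CCRF-CEM and HPB-ALL, both established T-ALL lines, after lowering of TOX, an HMG-box nuclear protein needed for T cell development. Each line gave 4 arrays: a scramble short hairpin RNA (shRNA), the hairpin shTOX-1 against TOX, the hairpin shTOX-2 against TOX, and untransduced cells. The 3 transduced cultures of a line had been spun with virus, selected with puromycin and kept for at least 2 weeks. Untransduced cells differ from them in all of these steps at the same time, and the steps cannot be told apart. The labels do not state separate cultures for the arrays, so errors and p-values reflect only the spread between these arrays, which may be technical. In bulk RNA, fewer cells that carry a transcript and less transcript per cell cannot be told apart.

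Immediate early genes are switched on within minutes of a stimulus, without new protein synthesis, mostly through ERK kinase signalling to serum response factor and its partners. EGR1 is a zinc finger transcription factor, and FOS pairs with JUN proteins to form AP-1. HBEGF is made as a membrane protein and shed by metalloproteases to act on EGF receptors. It is itself a gene that growth signals induce. XCL1 (lymphotactin) and CCL5 (RANTES) are chemokines of activated and cytotoxic lymphocytes. CCL5 is characteristically a late gene of T cell activation.

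The promoters are shown because the induction of early genes is usually traced to elements just upstream of the start site. RefSeq's promoter sequences (build GRCh38.p14) held 3 of the 5 members, and the 250 bases before the start site are given 5′ to 3′ on the gene's strand. EGR1 lies on chromosome 5 (chr5:138465229-138465478, plus strand), FOS on chromosome 14 (chr14:75278578-75278827, plus strand) and HBEGF on chromosome 5 (chr5:140346604-140346853, minus strand). Capitals mark the letters that matched a searched motif.
EGR1: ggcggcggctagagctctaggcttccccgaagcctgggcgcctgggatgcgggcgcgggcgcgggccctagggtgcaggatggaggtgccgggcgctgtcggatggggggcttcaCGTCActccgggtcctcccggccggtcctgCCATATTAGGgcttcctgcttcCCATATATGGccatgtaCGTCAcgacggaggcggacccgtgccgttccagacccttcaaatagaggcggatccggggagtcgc
FOS: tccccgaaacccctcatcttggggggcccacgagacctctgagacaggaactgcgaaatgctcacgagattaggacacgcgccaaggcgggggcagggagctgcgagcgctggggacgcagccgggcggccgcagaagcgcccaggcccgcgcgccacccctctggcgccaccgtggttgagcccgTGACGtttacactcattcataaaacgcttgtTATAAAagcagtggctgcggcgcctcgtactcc
HBEGF: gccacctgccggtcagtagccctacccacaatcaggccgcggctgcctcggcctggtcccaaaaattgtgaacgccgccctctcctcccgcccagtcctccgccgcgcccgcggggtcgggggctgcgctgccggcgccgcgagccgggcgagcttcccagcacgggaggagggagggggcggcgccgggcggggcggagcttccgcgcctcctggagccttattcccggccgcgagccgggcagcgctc

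The EGR1 promoter held 2 serum response elements (CArG boxes), CCATATTAGG from -105 to -96 and CCATATATGG from -83 to -74, counted back from the start site. CArG boxes were found in 1.16% of all 35116 promoters of that length. It also held the TGACG core of the cyclic AMP response element on the opposite strand, as CGTCA, from -135 to -131 and from -66 to -62. The FOS promoter held TGACG from -64 to -60 and TATAAA from -33 to -28. Of all promoters, 21.2% held TGACG on either strand and 10.7% held TATAAA. The HBEGF window matched none of the 7 motifs, which also included TGACGTCA (1.65% of promoters), TGACTCA or TGAGTCA (4.2%), GCGGGGGCG or GCGTGGGCG (5.37%) and the NF-kappaB site (9.96%). Both strands were searched, and TGACG is part of TGACGTCA. The 3 windows were rich in G and C, at 68.4% for EGR1, 64.8% for FOS and 76.4% for HBEGF, against a median of 58.0% over all promoters. They held 25, 25 and 33 CpG dinucleotides, against a median of 11. A match describes letters only and does not show that a factor binds there. Bases further upstream than these 250 were not searched, so a missing match, such as a CArG box for FOS, holds for this window only.

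The measure was a log2 signal for each probe set, and the array medians spanned 4.62 to 4.71, so a shift common to all genes could not be read. For a gene with several probe sets the brightest was used, and genes were tested if their mean reached the 40th percentile of all genes (log2 5.18, called the filter level here). That left 8930 genes, with all 5 members among them, though HBEGF and XCL1 lay above the level on only 5 and 3 of the 8 arrays. TOX was below both controls with each hairpin: its log2 level was 11.03 (scramble), 10.65 (shTOX-1), 9.86 (shTOX-2) and 11.03 (untransduced) in CCRF-CEM, with 10.59, 10.16, 8.75 and 10.64 for HPB-ALL. Of 12 T cell markers, 8 were measured; all 8 were at or above the filter level on every CCRF-CEM array and 6 on every HPB-ALL array, where CD2 and CD28 lay below it.

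HBEGF had the widest range of the 5. Its log2 level in CCRF-CEM was 10.46 in untransduced cells, 5.54 under scramble, 5.87 under shTOX-1 and 5.75 under shTOX-2. The HPB-ALL values were 6.79 in untransduced cells, 4.86 under scramble, 4.86 under shTOX-1 and 4.85 under shTOX-2. The untransduced array stood above all 3 transduced arrays in each line, and the transduced arrays of a line lay close together whether or not they carried a TOX hairpin. In HPB-ALL all 3 transduced arrays were below the filter level, a range in which probe sets have no reliable order.

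On the linear scale the transduced CCRF-CEM arrays kept 3.30%, 4.15% and 3.84% of the untransduced HBEGF signal (scramble, shTOX-1 and shTOX-2). The mean of the transduced arrays was 5.72 ± 0.17 (SD, n = 3) in CCRF-CEM and 4.86 ± 0.0033 (SD, n = 3) in HPB-ALL. Their distance from the untransduced array was therefore -4.74 (CCRF-CEM), a 26.7-fold lower signal, and -1.94 (HPB-ALL), where the dim transduced arrays allow no exact fold. In order of level, untransduced CCRF-CEM came first, untransduced HPB-ALL next, then the transduced CCRF-CEM arrays and last the transduced HPB-ALL arrays. Within the last pair of groups the constructs spanned 0.33 in CCRF-CEM and 0.0066 in HPB-ALL.

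**Figure D1:**
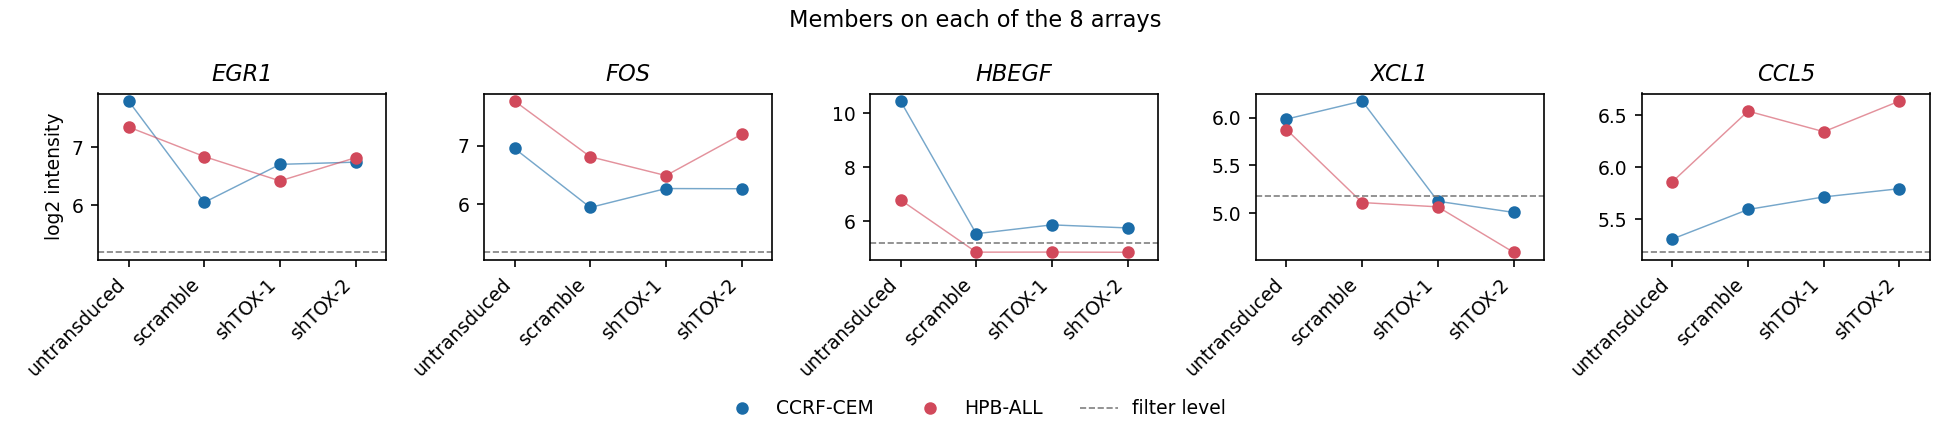
Log2 signal (y axis) of EGR1, FOS, HBEGF, XCL1 and CCL5 on each of the 8 arrays, by construct (x axis) and line (colour), with the filter level of 5.18 dashed. HBEGF, EGR1 and FOS are highest in the untransduced array of each line, CCL5 is lowest there, and XCL1 is lower with both TOX hairpins than with either control in CCRF-CEM, while scramble and shTOX-1 nearly coincide in HPB-ALL.

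EGR1 was also highest in untransduced cells of both lines, over a smaller range than HBEGF. Its log2 level in CCRF-CEM was 7.80 in untransduced cells, 6.05 under scramble, 6.71 under shTOX-1 and 6.74 under shTOX-2. HPB-ALL arrays read 7.35 in untransduced cells, 6.84 under scramble, 6.42 under shTOX-1 and 6.82 under shTOX-2. The untransduced array was highest in both lines, and the lowest array was scramble in CCRF-CEM but shTOX-1 in HPB-ALL. The transduced arrays averaged 6.50 ± 0.39 (SD, n = 3) in CCRF-CEM and 6.69 ± 0.24 (SD, n = 3) in HPB-ALL, 2.47-fold and 1.58-fold below the untransduced array. The 2 lines overlapped among the transduced arrays. The second EGR1 probe set stayed below the filter level on all 8 arrays, between 3.89 and 4.39, and did not show the pattern: in CCRF-CEM its untransduced array was the lowest.

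FOS had the same order of untransduced and transduced cells. Its log2 level in CCRF-CEM was 6.95 in untransduced cells, 5.95 under scramble, 6.27 under shTOX-1 and 6.27 under shTOX-2. For HPB-ALL the levels were 7.76 in untransduced cells, 6.81 under scramble, 6.49 under shTOX-1 and 7.20 under shTOX-2. Each HPB-ALL array was above the CCRF-CEM array of the same construct, although the untransduced CCRF-CEM array exceeded 2 transduced HPB-ALL arrays. The transduced means were 6.16 ± 0.19 (SD, n = 3) in CCRF-CEM and 6.83 ± 0.35 (SD, n = 3) in HPB-ALL, 1.73-fold and 1.90-fold below the untransduced array. The second FOS probe set lay between 4.81 and 5.55, at or above the filter level on 4 of 8 arrays, and its untransduced array was the lowest of its line in both lines. The lower FOS and EGR1 level in transduced cells therefore rests on 1 probe set for each gene.

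CCL5 ran the other way. Its log2 level in CCRF-CEM was 5.31 in untransduced cells, 5.59 under scramble, 5.71 under shTOX-1 and 5.79 under shTOX-2. HPB-ALL gave 5.86 in untransduced cells, 6.54 under scramble, 6.34 under shTOX-1 and 6.63 under shTOX-2. The untransduced array was lowest in each line, and every HPB-ALL array was above every CCRF-CEM array. The transduced means were 5.70 ± 0.10 (SD, n = 3) in CCRF-CEM and 6.50 ± 0.15 (SD, n = 3) in HPB-ALL, 1.31-fold and 1.56-fold above the untransduced array. All 8 values were at or above the filter level, the lowest of them only just.

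XCL1 was lower with both TOX hairpins than with either control in CCRF-CEM, but not clearly so in HPB-ALL. Its log2 level in CCRF-CEM was 5.98 in untransduced cells, 6.17 under scramble, 5.13 under shTOX-1 and 5.01 under shTOX-2. Levels in HPB-ALL were 5.88 in untransduced cells, 5.11 under scramble, 5.07 under shTOX-1 and 4.59 under shTOX-2. In CCRF-CEM both hairpin arrays were below both controls. In HPB-ALL the scramble array sat with the hairpins (shTOX-1 minus scramble was -0.04), and the untransduced array stood apart. All 4 shTOX arrays, and the HPB-ALL scramble array, were below the filter level, so XCL1 was above it on 3 of 8 arrays, all of them controls, and passed the filter through these. XCL2, a near-identical neighbouring gene whose transcripts the probes may share, did not show the pattern: its log2 level was 5.22, 5.26, 5.56 and 5.42 in CCRF-CEM (scramble, shTOX-1, shTOX-2, untransduced) and 5.02, 4.82, 5.09 and 5.07 in HPB-ALL.

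Across all arrays, the differences of transduced and untransduced cells, with line as a term, were -3.34 ± 0.47 (SE) for HBEGF, -0.98 ± 0.22 for EGR1, -0.86 ± 0.18 for FOS, -0.75 ± 0.20 for XCL1 and 0.52 ± 0.13 for CCL5. The HBEGF value lies between those of the lines: it was -1.94 without the untransduced CCRF-CEM array and -4.74 without the untransduced HPB-ALL array. The limma fit called 996 genes (11.2%) at a Benjamini-Hochberg adjusted p under 0.05, with 520 higher and 476 lower in transduced cells. All 5 members were among them, a count from which nothing is read, since they were chosen on these arrays. The count over all genes was 14 without the untransduced CCRF-CEM array and 325 without the untransduced HPB-ALL array.

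Scramble against untransduced cells gives the same contrast without any TOX hairpin; it shares the untransduced and the scramble arrays with the one above, so the values are given without comparing them. The differences were -3.43 ± 0.58 (SE) for HBEGF, -1.13 ± 0.27 for EGR1, -0.98 ± 0.22 for FOS, -0.29 ± 0.25 for XCL1 and 0.48 ± 0.16 for CCL5. The fit called 95 genes (1.06%), 1 member (HBEGF) among them, and nothing is read from that.

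The untransduced array stood above all 3 transduced arrays in both lines for EGR1, FOS and HBEGF, as it did for 16.7% of all genes. It stood below them in both lines for CCL5, as for 20.5% of all genes. Both shTOX arrays lay below both controls in both lines for XCL1, as for 4.99% of all genes, in HPB-ALL by the -0.04 given above.

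Pooled over the lines, the shTOX minus scramble difference was no larger than its SE for EGR1 and FOS. The difference was 0.23 ± 0.23 (SE) for EGR1, 0.18 ± 0.19 for FOS, 0.14 ± 0.50 for HBEGF, -0.69 ± 0.21 for XCL1 and 0.05 ± 0.14 for CCL5. With limma 0 genes (0%) were called, 459 had an unadjusted p under 0.05 and the smallest adjusted p was 0.835. Line by line, XCL1 with the hairpins was at -1.11 from scramble in CCRF-CEM and -0.28 in HPB-ALL, and EGR1 was at 0.68 and -0.22. The EGR1 value turned to -0.28 without the CCRF-CEM scramble array, where EGR1 was low, and was 0.73 without the HPB-ALL scramble array. XCL1 moved to -0.26 and -1.13 in the same cases.

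Against scramble and untransduced arrays together, the shTOX arrays differed by -0.34 ± 0.31 (SE) for EGR1, -0.31 ± 0.27 for FOS, -1.58 ± 0.86 for HBEGF, -0.84 ± 0.18 for XCL1 and 0.29 ± 0.16 for CCL5. For HBEGF the controls hold both the scramble arrays, at the level of the hairpin arrays, and the untransduced arrays far above them. Again limma called 0 genes (0%), with 1277 at an unadjusted p under 0.05. The hairpins differed from each other (shTOX-2 minus shTOX-1) by 0.22 ± 0.28 (SE) for EGR1, 0.35 ± 0.20 for FOS, -0.06 ± 0.63 for HBEGF, -0.30 ± 0.24 for XCL1 and 0.19 ± 0.16 for CCL5. There limma called 0 genes (0%), with 596 at an unadjusted p under 0.05, while TOX was lower with shTOX-2 than with shTOX-1 in each line.

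**Figure D2:**
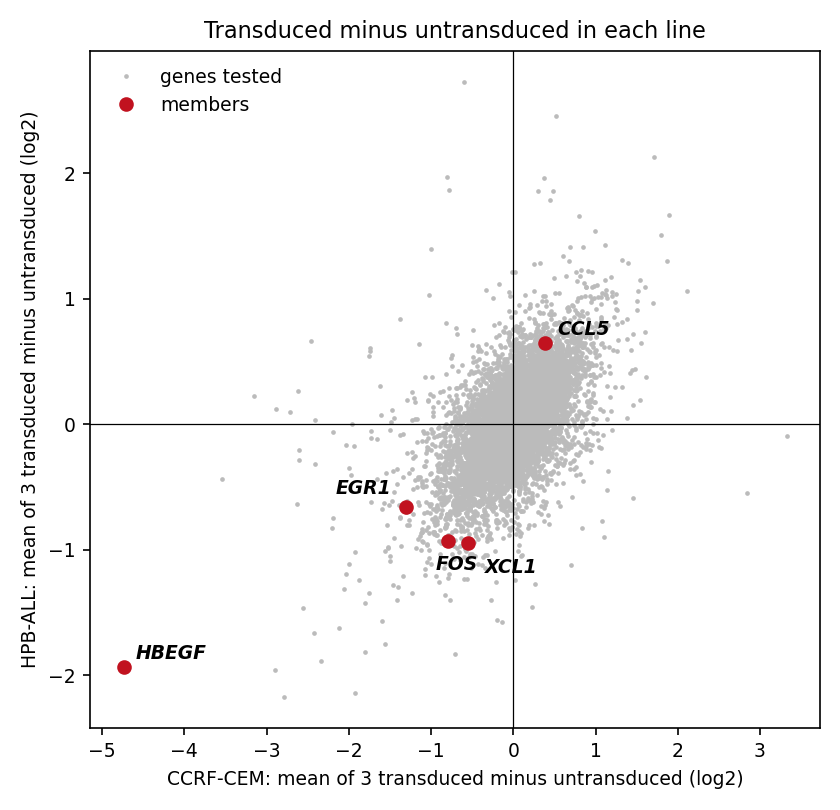
Transduced minus untransduced difference in CCRF-CEM (x axis, log2) against that in HPB-ALL (y axis, log2) for the tested genes, with the members marked. HBEGF lies at -4.74 and -1.94, EGR1, FOS and XCL1 lie below 0 in both lines, and CCL5 lies above 0 in both. Each point is a mean over the transduced arrays, and for XCL1 in CCRF-CEM the scramble array lay above the untransduced one by 0.19.

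The distance of transduced from untransduced cells was also set side by side between lines. CCRF-CEM minus HPB-ALL, it differed by -2.80 ± 0.25 (SE) for HBEGF, -0.64 ± 0.41 for EGR1, 0.14 ± 0.37 for FOS, 0.40 ± 0.57 for XCL1 and -0.25 ± 0.26 for CCL5. The fit called 6 genes (0.0672%), 1 member (HBEGF) among them, and nothing is read from that. All 3 transduced HPB-ALL arrays were below the filter level for HBEGF and the untransduced one was at 6.79, against 10.46 in CCRF-CEM; the part of this low range in the value was not tested.

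Between the lines, with the states untransduced, scramble and shTOX as terms, CCRF-CEM minus HPB-ALL was 1.57 ± 0.41 (SE) for HBEGF, 0.41 ± 0.17 for XCL1, -0.03 ± 0.19 for EGR1, -0.71 ± 0.15 for FOS and -0.74 ± 0.12 for CCL5. The fit called 2905 genes (32.5%), 3 members (HBEGF, FOS and CCL5) among them, and nothing is read from that. All CCRF-CEM arrays lay below all HPB-ALL arrays for CCL5, as for 14.2% of all genes.

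With the mean of each line taken off, EGR1 and HBEGF correlated at r = 0.90, EGR1 and FOS at 0.89 and FOS and HBEGF at 0.79 over the 8 arrays, which share the 2 untransduced arrays as their extremes. CCL5 ran opposite to XCL1 (r = -0.83) and HBEGF (r = -0.74), and EGR1 and XCL1 correlated at only r = 0.23. By the same measure, the genes closest to EGR1 were PLXDC1 (0.98), DYRK1B (0.98) and ANO6 (0.97). Those closest to FOS were NEK9 (0.98), TOP6BL (0.97) and RRN3P2 (0.97), and those closest to HBEGF were RBCK1 (0.99), HCG4B (0.98) and SWT1 (0.98). XCL1 was closest to RPUSD3 (0.99), SKIC3 (0.98) and DBNL (0.97), and CCL5 to KAT5 (0.98), MIR557 (0.98) and COMTD1 (0.98). These are the highest correlations over 8 arrays among the 8930 tested genes, leaving out the members and symbols not in plain form (such as LOC or LINC names). They describe likeness of pattern only.

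Genes next to the members on the chromosome were read in the contrast of transduced and untransduced cells, in which 11.2% of all genes were called. Of the 10 tested genes nearest to HBEGF, 5 on each side, 0 were called by limma, and their differences ran from -0.40 to 0.11. Around FOS 0 of 10 were called, from -0.48 to 0.40, with NEK9, also the gene closest to FOS in pattern, at the low end (-0.48 ± 0.14, SE, adjusted p = 0.0571). Around XCL1 0 of 10 were called, from -0.35 to 0.39. Beside EGR1 2 of 10 were called, KIF20A and CDC25C, genes of mitosis, and both were higher (1.32 and 0.68). Beside CCL5 1 of 10 was called, MRM1, also higher (0.70).

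Of the other immediate early transcription factors, 19 were listed, 15 measured and 12 tested. Between transduced and untransduced cells limma called 1 higher and 1 lower (11.2% of all genes were called), and their median difference was 0.12, against 0.03 for all genes. JUNB, an AP-1 subunit, fell by 0.78 ± 0.13 (SE) on the log2 scale, adjusted p = 0.0107. Its log2 level was 8.67 in untransduced CCRF-CEM against 7.70 to 8.16 in the transduced arrays, and 9.64 in untransduced HPB-ALL against 8.80 to 8.98. KLF10, a zinc finger factor induced early by TGF-beta, rose by 0.80 ± 0.18 (SE), adjusted p = 0.0227. It was at 7.92 in untransduced CCRF-CEM against 8.26 to 8.90, and at 8.40 in untransduced HPB-ALL against 9.16 to 9.49. Both calls were lost without either untransduced array.

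Of 20 other immediate early genes, 12 were measured and 8 tested. In the same contrast 1 was called, lower (11.2% of all genes were called), and the median difference was -0.16. That gene was IER3, a survival-related early response gene, which fell by 1.02 ± 0.24 (SE) on the log2 scale (adjusted p = 0.0281). It was at 9.38 in untransduced CCRF-CEM against 8.03 to 8.58, and at 9.84 in untransduced HPB-ALL against 8.27 to 9.26. The call was lost without CCRF-CEM scramble, CCRF-CEM shTOX-2 or either untransduced array. JUN, the main partner of FOS in AP-1, was at 9.08 in untransduced CCRF-CEM and 7.83 under scramble, 9.74 under shTOX-1 and 9.76 under shTOX-2. The HPB-ALL levels were 8.56 in untransduced cells, 9.20 under scramble, 8.95 under shTOX-1 and 9.88 under shTOX-2. It was not called between shTOX and scramble (1.07 ± 0.38, SE, adjusted p = 0.93).

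**Figure D3:**
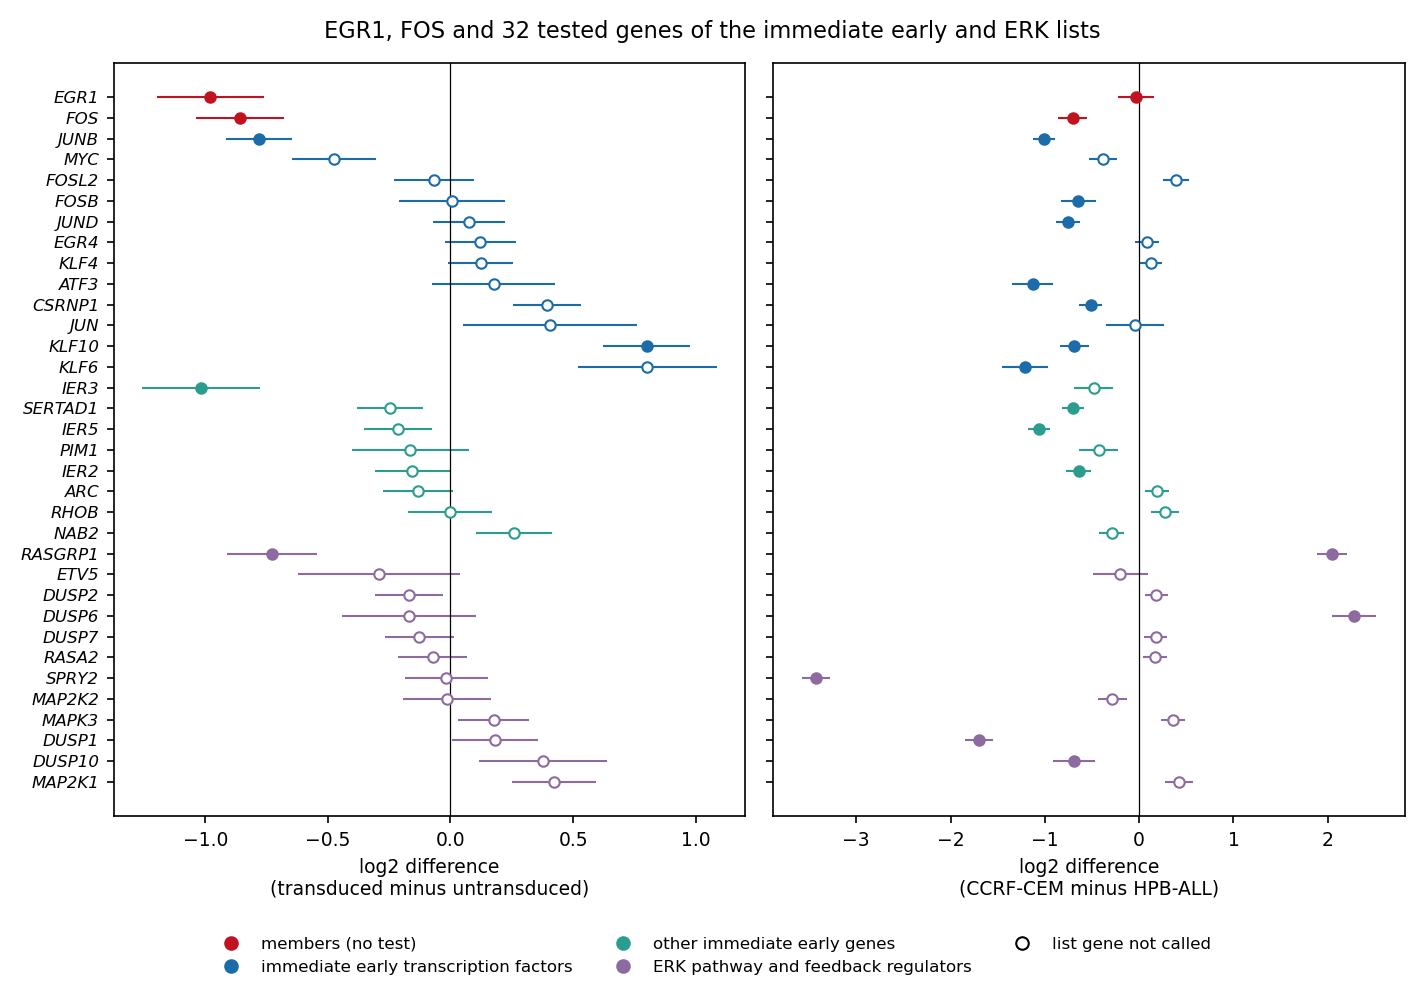
Log2 difference (x axis; bars are SE) of EGR1, FOS and the 32 tested genes of 3 lists (immediate early transcription factors, other immediate early genes, ERK pathway), for transduced minus untransduced cells and for CCRF-CEM minus HPB-ALL. Filled points were called; EGR1 and FOS, in red, carry no test. JUNB, IER3 and RASGRP1 are the called genes below 0 in the first panel and KLF10 the called gene above 0.

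The array with the lowest and the highest level was counted over the 20 tested genes of both lists. In CCRF-CEM scramble was lowest for 10 genes (19.3% of all genes tested), as it was for EGR1 and FOS, shTOX-1 for 1 (19.6%), shTOX-2 for 6 (24.1%) and untransduced cells for 3 (36.9%). Scramble was highest there for 0 (19.1%), shTOX-1 for 8 (32.3%), shTOX-2 for 6 (18.1%) and untransduced cells for 6 (30.5%). EGR1 and FOS, highest in untransduced cells, thus shared that place with 6 of the 20. In HPB-ALL scramble was lowest for 2 (24.2%), shTOX-1 for 7 (17.1%), shTOX-2 for 2 (25.1%) and untransduced cells for 9 (33.6%). Scramble was highest for 7 (21.8%), shTOX-1 for 0 (28.1%), shTOX-2 for 8 (22.1%) and untransduced cells, the highest array for EGR1 and FOS, for 5 (27.9%).

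The ERK pathway and its feedback regulators, upstream of the early genes, gave 1 call among 12 tested of 22 listed (11.2% of all genes were called). RASGRP1, an exchange factor that activates RAS in T cells, was lower in transduced cells (-0.73 ± 0.18, SE, adjusted p = 0.0362), and the call held in 2 of 8 fits with an array left out. The median difference of this list was -0.04. A list of 13 genes held serum response factor, which acts through CArG boxes, and partners and coregulators, not all of which act there. Of these, 7 were tested and 0 called by limma, with a median of -0.06. ELK1, ELK3 and ELK4, partners of serum response factor, were listed but not measured. MED23, a Mediator subunit, had the smallest p (-0.33 ± 0.13, SE, adjusted p = 0.146).

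Between the lines, 32.5% of all genes were called, 1573 of the 8930 lower in CCRF-CEM and 1332 higher. Of the 12 immediate early transcription factors, 7 were lower in CCRF-CEM and 0 higher, with a median of -0.58 against -0.01 for all genes. Examples were KLF6 (-1.21 ± 0.24, SE, adjusted p = 0.00452), ATF3 (-1.13 ± 0.22, adjusted p = 0.00336) and JUNB (-1.01 ± 0.12, adjusted p = 0.000155). FOSB, the close relative of FOS, was also lower (-0.64 ± 0.19, adjusted p = 0.0258), but held its call in only 2 of 8 fits with an array left out. Of the 8 other early genes, 3 were lower, led by IER5 (-1.06 ± 0.12, adjusted p = 0.000147). In the ERK list 2 were higher in CCRF-CEM and 3 lower. DUSP6, a phosphatase that switches off ERK, was higher (2.28 ± 0.24, adjusted p = 7.57e-05), and SPRY2, an inhibitor of RAS signalling, was lower (-3.43 ± 0.15, adjusted p = 2.77e-07).

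In the rest of the HBEGF system, the other ligands and the measured receptors were mostly dim, while several sheddases and partners were bright. Of the 10 other EGF family ligands 8 were measured, and only NRG2 was bright enough to test (-0.11 ± 0.20, SE, adjusted p = 0.767, transduced minus untransduced). EGFR, ERBB3 and ERBB4, the measured receptors of the family, and CD9, an HBEGF partner, lay below the filter level on all 8 arrays. They were named for their roles, and ERBB2 was listed but not measured. The partners CD81 (6.87 to 7.30), CD82 (7.95 to 8.74) and NRDC (10.54 to 10.88) lay above it on all 8. EGFR ran from 3.89 to 4.33. Of the 14 receptors, sheddases and partners listed, 7 were tested and 1 was called by limma (11.2% of all genes were called). ADAM10, a shedding protease, was lower in transduced cells (-0.52 ± 0.14, SE, adjusted p = 0.0422), a call that held in 1 of 8 fits with an array left out. ADAM17, the protease best known for shedding HBEGF, ranged only from 8.47 to 8.82 over the 8 arrays.

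Few other chemokines were bright enough to compare with XCL1 and CCL5. Of 32 listed ligands 28 were measured and 4 tested; limma called 0 between transduced and untransduced cells, with a median of 0.08. CCL1, a ligand of CCR8, had the smallest p (1.17 ± 0.36, SE, adjusted p = 0.0681). XCR1, the receptor of XCL1, lay near the filter level on all 8 arrays (4.86 to 5.20), and the CCL5 receptor CCR1 was dim throughout (3.25 to 3.63).

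**Figure D4:**
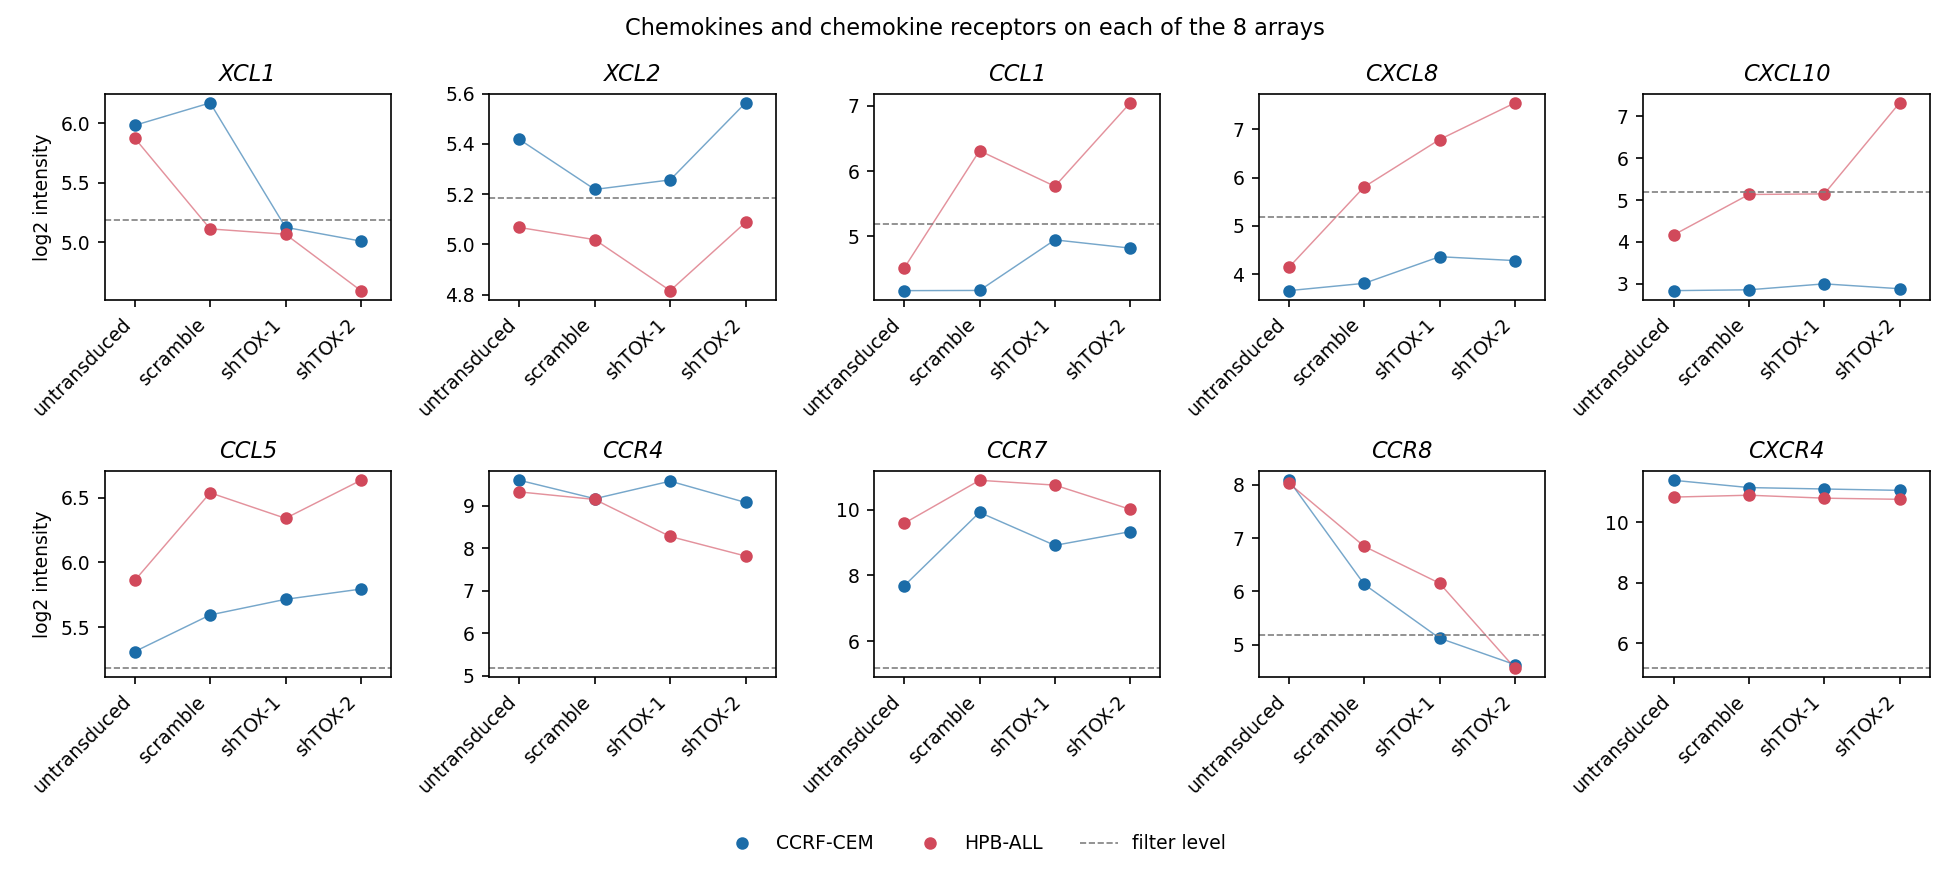
Log2 signal (y axis) of chemokines and chemokine receptors on the 8 arrays, with the filter level of 5.18 dashed. CCR8 is highest and CCR7 lowest in the untransduced array of each line. CXCL8 and CXCL10 were picked for display after their values were seen.

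Of 23 chemokine receptors, 8 were tested and 2 called between transduced and untransduced cells (11.2% of all genes were called). CCR8, a receptor of skin-homing and regulatory T cells, fell by 2.48 ± 0.35 (SE) on the log2 scale in transduced cells (adjusted p = 0.00574). Its level was below the filter level on 3 of the 6 transduced arrays, so no fold is given. It was at 8.08 in untransduced CCRF-CEM, 6.13 under scramble, 5.12 under shTOX-1 and 4.63 under shTOX-2. For HPB-ALL it was at 8.03, 6.84, 6.15 and 4.56 in the same order. Each hairpin array was below scramble in both lines, yet shTOX minus scramble was not called (-1.37 ± 0.37, SE, adjusted p = 0.93). CCR7, the lymph node homing receptor, rose by 1.33 ± 0.23 (SE, adjusted p = 0.0109). It was at 7.69 in untransduced CCRF-CEM against 8.92 to 9.92 in the transduced arrays, and at 9.59 in untransduced HPB-ALL against 10.01 to 10.90. Both calls were lost without the untransduced CCRF-CEM array only.

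Transcription factors of CCL5 and cytokine genes, 20 listed and 14 tested, gave 0 limma calls between transduced and untransduced cells, with a median of -0.01. The smallest p was that of NFKB1, the p50 subunit of NF-kappaB (0.59 ± 0.21, SE, adjusted p = 0.101). Between lines 6 were called (32.5% of all genes were called). RUNX3, a factor of cytotoxic T cells, was lower in CCRF-CEM (-1.31 ± 0.15, SE, adjusted p = 0.000176), and KLF13, known for late CCL5 expression in T cells, was higher (0.55 ± 0.13, adjusted p = 0.0108), whereas CCL5 itself was lower there. Of 12 NF-kappaB target genes 4 were tested, and the adhesion molecule ICAM1 was lower in transduced cells (-0.61 ± 0.16, adjusted p = 0.0427), a call that held in 2 of 8 fits with an array left out. Of 24 T cell activation and cytokine genes 3 were tested, and limma called 0 between transduced and untransduced cells.

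XCL1 and CCL5 are also made by natural killer and cytotoxic T cells, so markers of those cells were set beside them. Of 13 such markers 7 were measured, and 4 to 6 were at or above the filter level on any array. GNLY was below it throughout, and NKG7 (7.31 to 8.99), NCR3 (5.53 to 6.81) and CD8A (5.72 to 8.60) were above it throughout. Between the lines 5 were tested, and limma called 4 higher in CCRF-CEM and 0 lower (32.5% of all genes were called). These were NCR3, NKG7, CD8A and CD8B, whereas CCL5 was lower there. With an array left out, the CD8B call held in 4 of 8 fits and the NCR3 call in 6. The summed linear signal of the 7 markers was 919 in untransduced CCRF-CEM against 726 to 929 in the transduced arrays, and 401 in untransduced HPB-ALL against 417 to 521. Their part in the CCL5 and XCL1 levels was not tested.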

How the data were processed

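RNA of 8 arrays was measured as log2 signal per probe set in the tables deposited by the authors; the unit is judged from the range of the values, and what software, background correction and normalization made them is not given in the sources used here. Per the labels, RNA was labelled by an Affymetrix protocol. The members and lists were chosen with earlier results of these data known. Probe sets without a symbol (37519) were left out; for the 779 genes with several, the one with the highest mean was used. Differences were fitted over all 8930 genes and 8 arrays by lmFit and eBayes of limma 3.58.1 (R 4.3.3). Most fits had terms for line and for the states untransduced, scramble and shTOX. For shTOX minus controls, the scramble and untransduced arrays were joined. Each hairpin had its own term only for shTOX-2 minus shTOX-1. The line difference used a mean for each line and transduction state. Calls needed an adjusted p (Benjamini-Hochberg) under 0.05. The code was tested on simulated data. Named genes were the members, up to 6 called genes of each list by size (or up to 3 by smallest p), and the 3 most alike by correlation; other named genes, such as JUN beside FOS, were chosen for their role or after their values were seen. Alternatives changed the filter, probe set choice, normalization, variance prior, line term, replicate block and arrays. Few arrays limit the precision.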

Additional observations from a re-analysis of the deposited data

Results flagged for a closer look

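The 39 named genes gave 117 sets of 4 arrays (each line and the shTOX arrays). In 7 sets the gap of an array to its nearest neighbour exceeded 0.829 of the whole range. Chance gives this in about 5% of independent sets of genes picked without regard to their values. Many of these genes were chosen or called on these same arrays, and the sets share arrays, so that rate does not apply here. Nothing is read from the count, and no explanation was tested. HBEGF in untransduced cells stood apart in both lines, with a share of 0.933 in CCRF-CEM and 0.997 in HPB-ALL. The others were RASGRP1 (0.843) and KIF20A (0.886) in untransduced HPB-ALL, MRM1 in untransduced CCRF-CEM (0.857), CCR1 in HPB-ALL with shTOX-2 (0.895), where its signal is dim, and JUN in HPB-ALL with shTOX-1 among the shTOX arrays (0.850).

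The transduced minus untransduced difference of HBEGF differed between lines by -2.80 in the limma fit, with the transduced HPB-ALL arrays below the filter level. For 8 of the 39 named genes both shTOX arrays lay on opposite sides of scramble in the 2 lines, and the difference was not tested. Many of these genes were chosen on these arrays and the share over all genes was not counted, so nothing is read from the number. Each value rests on a single scramble array in each line. In HPB-ALL the shTOX-2 array was close to scramble for EGR1 (6.82 against 6.84) and KLF6 (9.45 against 9.48). The shTOX minus scramble value was greater in CCRF-CEM than in HPB-ALL by 1.17 for KLF6, 0.90 for FOSB, 0.90 for EGR1 and 0.72 for KLF10. It was also greater by 0.80 for NRG2, 0.69 for KLF13 and 0.34 for XCR1, and for MRM1 the value was -0.74.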

How the results depend on the processing

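Over all alternatives tried, 457 differences of single members moved by less than the residual SD of the gene in the main fit. A further 20 moved by more, and 0 of the called ones changed sign. The residual SD is not the SE given with the differences, and a shift counted as small here can exceed that SE. For transduced minus untransduced cells, HBEGF was -1.94 without the untransduced CCRF-CEM array and -4.74 without the untransduced HPB-ALL array, and with the mean of both probe sets EGR1 was -0.44 and FOS -0.26. Of the counts of genes called, 79 stayed within 1.5 times and 22 did not. Transduced minus untransduced went from 996 to 2 with no line term. Scramble minus untransduced went from 95 to 162 with a filter at the 60th percentile, 182 with an intensity trend, and 0 with no line term (limma; 691 at an unadjusted p under 0.05). The line difference went from 6 to 12 with no filter and 0 at the 60th percentile (255 unadjusted).

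The replicate block, which treats construct as shared by the lines, gave 9 genes for scramble minus untransduced and 16 for shTOX minus controls; it changed no other count by over 1.5 times. The numbers name hairpins and pair no samples (r = 0.23 across genes for same-numbered shTOX arrays). For shTOX-2 minus shTOX-1 the planned fit with no replicate block cannot give a value, so both controls were taken as 1 term, chosen after seeing the data: limma called 0 genes (381 unadjusted).

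With 1 array left out, counts ran from 14 to 898 (transduced minus untransduced), 3 to 90 (scramble minus untransduced), 0 to 0 (shTOX minus scramble), 0 to 4 (shTOX minus controls), 2288 to 2554 (lines), 0 to 2 (hairpins) and 4 to 9 (line difference, which has no value without an untransduced array).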

Other observations

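Some inflammatory chemokines were higher on some or all transduced HPB-ALL arrays than on the untransduced one, and were dim in CCRF-CEM. They were chosen after their values were seen, and CXCL8, CXCL10 and CCL2 had means below the filter level and were not tested. CXCL8, the neutrophil chemokine, had a log2 level of 4.14 in untransduced HPB-ALL, 5.81 with scramble, 6.79 with shTOX-1 and 7.55 with shTOX-2, and 3.66 to 4.36 in CCRF-CEM. CXCL10, an interferon-induced chemokine, was at 4.17 in untransduced HPB-ALL, 5.13 with scramble, 5.15 with shTOX-1 and 7.32 with shTOX-2. Only the shTOX-2 array was above the filter level for CXCL10. CCL2, a monocyte chemokine, was high only with shTOX-2 in HPB-ALL (7.12, against 4.65 to 5.28 on the other HPB-ALL arrays). CCL1 was at 4.51 in untransduced HPB-ALL, 6.31 with scramble, 5.77 with shTOX-1 and 7.04 with shTOX-2. The summed linear signal of the 7 measured myeloid markers was 186 in untransduced HPB-ALL, 306 with scramble, 183 with shTOX-1 and 423 with shTOX-2. This sum mainly followed MPO, at log2 4.83, 7.03, 5.10 and 7.94 in the same order. The median log2 level of the 7 markers was 4.67, 4.86, 4.39 and 4.49, so the sum does not describe the whole set. The part of these markers in the chemokine levels was not tested.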
